A study of Mus musculus with 8 samples.

Results

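The genes described here encode type 2 cytokines that act on skin and sensory neurons, their receptor chains and the transcription factor that carries the IL-4 and IL-13 signal. They were chosen by symbol, as Il4, Il4ra, Il13ra1, Il13ra2, Il2rg, Tslp, Crlf2, Il7r, Il31ra and Stat6, and all 10 were found among the 18901 genes of the deposited table. Whole cheek skin that had been injected with BNP was sequenced from 4 TBX20fl/fl;K14-Cre mice (called cKO mice here) and 4 littermate TBX20fl/fl mice (called control mice), to ask how loss of TBX20 from keratinocytes alters the skin transcriptome after an injection of BNP, a natriuretic peptide that elicits scratching. All mice were female and 7 weeks old, all carried the floxed Tbx20 alleles, and all received 10 µg of BNP into the left cheek, with skin taken 5 h after a 30 min recording of behaviour. In cKO mice the K14 promoter drives Cre in keratinocytes, where exons 2 and 3 of Tbx20 are removed. The K14-Cre line was on a C57BL/6N background and the floxed line on C57BL/6J, and vehicle-injected skin was not analysed here. Each library was made from whole skin of 1 mouse, so that for every gene below fewer cells of a type and less RNA per cell cannot be told apart.

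IL-4 and IL-13 bind receptors that share the chain encoded by Il4ra. Il4ra pairs with the common gamma chain (Il2rg) in lymphocytes to form the type I receptor, or with Il13ra1 in keratinocytes, fibroblasts and macrophages to form the type II receptor, and either receptor activates STAT6 through Janus kinases. IL-13RA2 binds IL-13 with high affinity and is known mainly as a decoy. TSLP is an epithelial cytokine whose receptor joins the chain encoded by Crlf2 to the IL-7 receptor alpha chain (Il7r), and IL-31, made by T cells, acts on the pair of IL-31RA and the oncostatin M receptor. These cytokines are established drivers of atopic skin inflammation and itch, and their receptors are found on sensory neurons as well as on skin and immune cells. The libraries here are of cheek tissue, and the trigeminal ganglion, which holds neurons that innervate the cheek, was not sequenced.

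No member passed the threshold in the comparison of genotypes, and in edgeR no other gene did. With the quasi-likelihood test of edgeR and adjustment by Benjamini and Hochberg, 0 of 17124 genes had an adjusted p under 0.05 (0%), with a smallest adjusted p of 0.498, while 1431 genes (8.36%) had an unadjusted p under 0.05. DESeq2 called 10 genes, with 1954 at an unadjusted p under 0.05, none of them a member at the adjusted threshold, and limma on log2(FPKM + 1) called 0, with 1046 at an unadjusted p under 0.05. Within these limits, 2 members stood lower in cKO skin at an unadjusted p under 0.05, Il13ra1 and Il7r, and the count was also 2 without control replicate 2, a mouse that stood apart from the rest. Over all genes tested, 5.91% were lower and 2.45% were higher at that level, so that 2 of 10 is a description and not a call. The fold change was below 0 for 7 of the 10 members, with a median log2 fold change of −0.18, against 47.5% of all genes and a median of 0.026. With scaling to library totals, or with FPKM values, 5 of 10 were below 0, since Tslp and Crlf2 moved to the other side.

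Total counts ranged from 19260856 to 19880654 in cKO mice and from 16056282 to 19617762 in control mice, at which 3 counts correspond to 0.151 to 0.187 CPM (counts scaled to the library total). Tbx20 had 0 to 2 counts in the former and 0 to 3 in the latter, too few at this depth to detect its loss in whole skin. The defining keratinocyte genes were present in every mouse, with a summed FPKM over 6 markers of 2951 to 3770 and 2562 to 3854. Genes of skeletal muscle were present too, with 5 markers summing to 7635 to 12810 and 10030 to 13640 FPKM. The libraries thus hold RNA of muscle beside that of skin. Control replicate 2 stood apart, with the lowest total, a TMM scaling factor of 0.735 against 1.01 to 1.07 in the other mice, and a summed FPKM of 772536 against 521852 to 605508. The main values that rest on this mouse are given with and without it.

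Il13ra1, which completes the type II receptor, was the most highly expressed member. The gene lies at chrX:36112108-36171262 (GRCm38), and its FPKM (fragments scaled to transcript length and library depth) was 54.0, 53.3, 52.1 and 64.3 in cKO replicates 1 to 4 and 68.9, 70.7, 73.7 and 67.4 in control replicates 1 to 4. The groups did not overlap, with all 4 cKO mice below the lowest control mouse, and the highest of the former, replicate 4, stood closest to the latter. The mean FPKM was 55.9 ± 5.66 (SD, n = 4) against 70.2 ± 2.73 (n = 4), with p = 0.0286 in a two-sided exact permutation test, the smallest that 4 against 4 mice can give. Among 15970 genes whose mean FPKM reached 0.1, the groups did not overlap with cKO lower in 1.92% and higher in 5.45%, and Il13ra1 was the 1 of 10 members without overlap.

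In counts, Il13ra1 had 3815, 3863, 3760 and 4692 in cKO mice and 4957, 4166, 5126 and 4731 in control mice. The log2 fold change was −0.51 (SE 0.172), with an unadjusted p of 0.0149 and an adjusted p of 0.498 in edgeR. It ranged from −0.82 to −0.33 over 19 alternatives, at an unadjusted p under 0.05 in 19 of 19 and an adjusted p of 0.228 to 0.690. Without control replicate 2 it was −0.37, with an unadjusted p of 0.00746 in edgeR. Leaving out any control mouse left the groups without overlap, with an exact permutation p of 0.0571 each time.

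Il7r, the chain that TSLP and IL-7 receptors share, showed the second such difference. It lies at chr15:9506159-9529941, and its FPKM was 2.98, 3.60, 4.19 and 5.51 in cKO mice and 5.62, 4.83, 6.28 and 6.69 in control mice. The groups overlapped through a single crossing, cKO replicate 4 being above control replicate 2. The mean FPKM was 4.07 ± 1.08 against 5.86 ± 0.813 (SD, n = 4 each), with p = 0.0571 in the exact permutation test.

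The counts of Il7r were 181, 225, 261 and 346 in cKO mice and 348, 245, 376 and 405 in control mice. The log2 fold change was −0.69 (SE 0.193), with an unadjusted p of 0.00584 and an adjusted p of 0.498 in edgeR, and it ran from −0.87 to −0.45 over the 19 alternatives. The unadjusted p was under 0.05 in 19 of 19 and the adjusted p between 0.124 and 0.690. Without control replicate 2 the log2 fold change was −0.65, with an unadjusted p of 0.00725 in edgeR. When mice of the same replicate number were set against each other, Il13ra1 and Il7r were each lower in the cKO mouse in 4 of 4 pairs. A sign-flip permutation test cannot go below 0.125 there. The share of all genes lower in 4 of 4 pairs was not measured, so that this is a description.

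**Figure D1:**
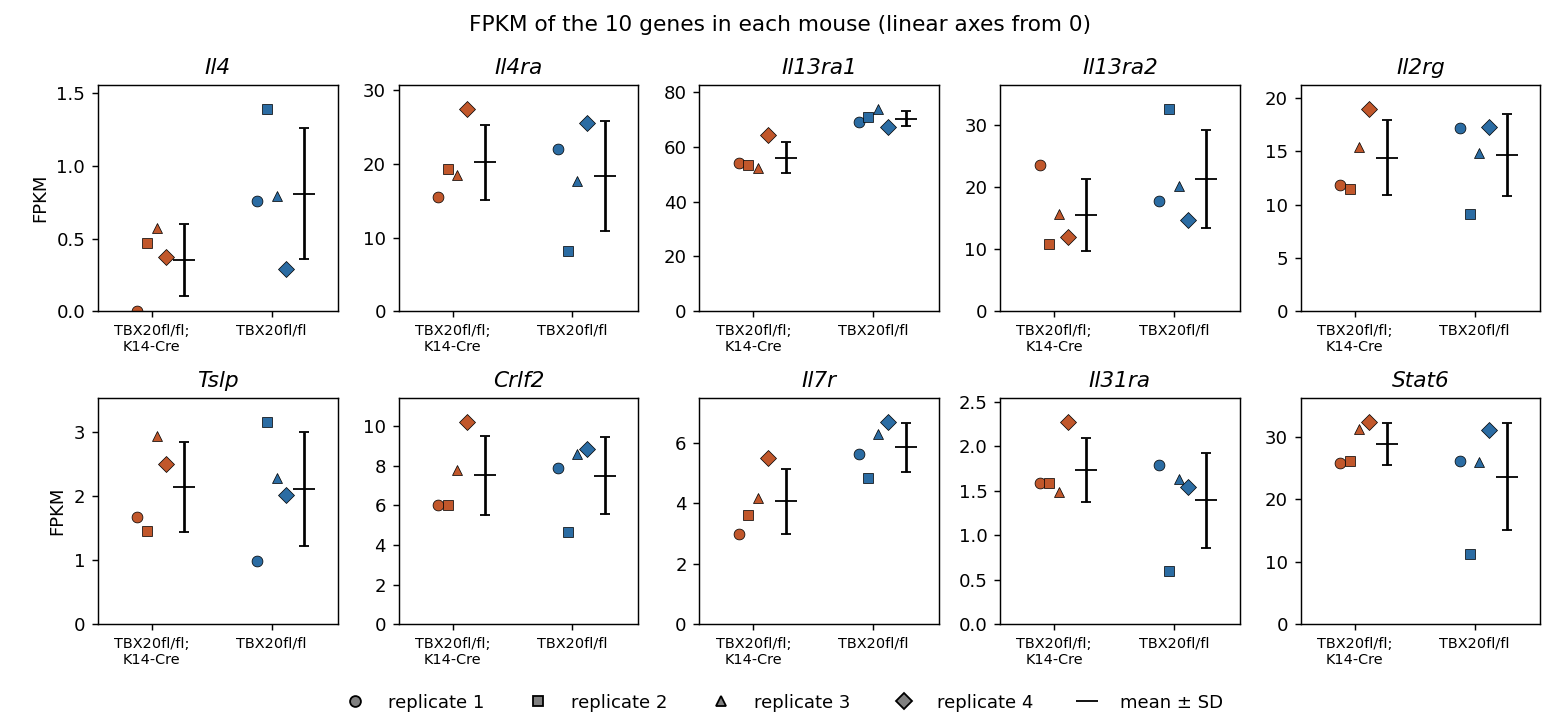
FPKM of each of the 10 genes (vertical axes, linear from 0) in the 4 cKO (TBX20fl/fl;K14-Cre, orange) and the 4 control (TBX20fl/fl, blue) mice, with a symbol for each replicate number and the mean ± SD at the side. Il13ra1 is the gene whose groups do not overlap, and control replicate 2 (blue square) is the lowest of 8 mice for Il4ra, Il2rg, Crlf2, Il31ra and Stat6 and the highest for Il4, Il13ra2 and Tslp.

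To show what lies before the starts of these genes, the 250 bases upstream of RefSeq starts (GRCm38.p6) were searched for 4 motifs on both strands. They were the STAT6 element TTCNNNNGAA, the element TTCNNNGAA that other STAT factors bind, the T-box site GGTGTGA and the GATA site AGATAA. A promoter sequence was at hand for 9 of the 10 members (10 starts, of which Il4 has a pair). The sequences of the 2 members with an unadjusted p under 0.05 are printed together with that of the Il4 start that holds a STAT6 element, 5′ to 3′ on the strand of the gene, with motif matches in capitals. For Il7r the 65 bases that fall inside the gene's RefSeq span are left out. The starts used also lie inside the RefSeq span for Il31ra, Crlf2, Stat6 and the other start of Il4, so that positions are counted from the start used and not from the end of the gene's span. For Il2rg the deposited span is wider than that of RefSeq (chrX:101264385-101268255), and its start lies inside the former. The deposited table also lists Il2rg on the plus strand, while the RefSeq promoter is on the minus strand.

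Il7r (chr15:9529942-9530126, minus strand): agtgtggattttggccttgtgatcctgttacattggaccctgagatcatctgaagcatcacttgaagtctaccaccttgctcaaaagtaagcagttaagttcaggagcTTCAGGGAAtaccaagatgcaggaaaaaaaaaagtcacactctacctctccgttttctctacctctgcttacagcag
Il13ra1 (chrX:36111858-36112107, plus strand): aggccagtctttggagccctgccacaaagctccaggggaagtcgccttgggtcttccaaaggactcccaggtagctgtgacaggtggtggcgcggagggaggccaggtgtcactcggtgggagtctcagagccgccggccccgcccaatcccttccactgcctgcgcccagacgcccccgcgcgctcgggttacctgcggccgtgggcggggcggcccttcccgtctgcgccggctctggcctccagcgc
Il4 (chr11:53618666-53618915, minus strand): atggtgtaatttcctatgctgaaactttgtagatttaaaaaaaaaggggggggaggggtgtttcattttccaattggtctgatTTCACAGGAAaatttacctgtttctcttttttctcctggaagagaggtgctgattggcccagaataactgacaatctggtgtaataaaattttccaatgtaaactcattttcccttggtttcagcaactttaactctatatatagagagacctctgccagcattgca

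The capitals in the Il7r sequence mark TTCAGGGAA, a match to TTCNNNGAA between 142 and 134 bases before the start used. Il31ra held the match TTCCAGGAA between 191 and 183 bases before the start used, and 7.02% of all 32851 promoters of this length held such an element. The capitals in the Il4 sequence mark TTCACAGGAA, between 167 and 158 bases before the start, the 1 match among the members to TTCNNNNGAA, which 5.85% of promoters held. The Il13ra1 sequence held none of the 4 motifs and was rich in G and C, at 70.8% against a median of 52.4% over all promoters. GGTGTGA was in 0 of 9 members' promoters and in 3.33% of all, and AGATAA was in that of Il13ra2 and in 9.99% of all. These matches describe letters in a window and not sites of binding.

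Among the ligands, Il4, the cytokine that T helper 2 cells, mast cells and basophils make, was at the limit of detection. Il4 (chr11:53612460-53618665) had 0, 5, 6 and 4 counts in cKO mice and 8, 12, 8 and 3 in control mice. The mouse with 0 counts allows up to 0.156 CPM, and the groups overlapped through control replicate 4. The mean FPKM was 0.353 ± 0.249 against 0.808 ± 0.451 (SD, n = 4 each; exact permutation p = 0.114), and edgeR gave a log2 fold change of −1.36 (SE 0.757) with an adjusted p of 0.499. Leaving out 1 mouse at a time moved that value between −1.68 and −0.82, the weakest being without control replicate 2, the mouse with the most Il4 counts. Without control replicate 4, the mouse with the fewest of its group, the exact permutation p of the FPKM difference was 0.0286.

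Tslp (chr18:32815383-32819799), the epithelial alarmin of the set, was low as well. Its counts were 35, 31, 63 and 54 in cKO mice and 21, 55, 47 and 42 in control mice, and both the lowest and, in FPKM, the highest of the 8 mice were control mice. The mean FPKM was 2.15 ± 0.703 against 2.12 ± 0.894 (SD, n = 4 each; exact permutation p = 0.943). The log2 fold change was −0.20 (SE 0.432, adjusted p = 0.794 in edgeR) and was 0.23 without control replicate 2, so that no direction can be given.

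The other receptor chains of the IL-4 and IL-13 system overlapped between the genotypes in FPKM. Il4ra (chr7:125552271-125579474), the chain common to both receptors, had FPKM values of 15.5, 19.3, 18.5 and 27.4 in cKO mice and 22.0, 8.18, 17.6 and 25.5 in control mice. The ranges overlapped almost wholly, and the lowest value was that of control replicate 2. The mean was 20.2 ± 5.09 against 18.3 ± 7.5 (SD, n = 4 each; exact permutation p = 0.714). Its log2 fold change was 0.030 (SE 0.260, adjusted p = 0.955 in edgeR) with all mice and −0.15 without that mouse, or without cKO replicate 4. With the trend of each library with transcript length removed it was −0.31 (unadjusted p = 0.0847 in edgeR), and with a replicate block as well −0.33 (unadjusted p = 0.0444, adjusted p = 0.517 in edgeR).

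Il13ra2 (chrX:147383478-147429192), the decoy chain, had a wide spread in both groups. Its FPKM was 23.5, 10.7, 15.6 and 11.95 in cKO mice and 17.8, 32.5, 20.1 and 14.6 in control mice, with means of 15.5 ± 5.75 and 21.3 ± 7.84 (SD, n = 4 each; exact permutation p = 0.314). The highest value was that of control replicate 2, and the next that of cKO replicate 1. The log2 fold change of −0.72 (SE 0.390, adjusted p = 0.498 in edgeR) was −0.24 without control replicate 2. It was −1.01 without cKO replicate 1 and −0.90 without control replicate 4, where the unadjusted p in edgeR was 0.0344 and 0.0477.

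Il2rg (chrX:101264111-101268294), the gamma chain that lymphocytes use for IL-4, IL-7 and other cytokines, ranged in FPKM from 11.45 to 18.95 in cKO mice and from 9.13 to 17.3 in control mice. The mean was 14.4 ± 3.50 against 14.6 ± 3.83 (SD, n = 4 each; exact permutation p = 0.971), with a log2 fold change of −0.16 (SE 0.190, adjusted p = 0.653 in edgeR). Without control replicate 2 the log2 fold change was −0.24 and the difference of the mean FPKM −2.04. Of the 50-base stretches of its annotated transcripts, 27.5% also occur in Gm20489, a protein-coding gene on the same strand in GENCODE that shares 728 exonic bases with it. Whether the authors' counting included Gm20489 was not tested, so that any division of reads between the pair is uncertain. For Il4ra the share of such stretches was 8.44%, through the antisense gene Gm44876. Whether the counting used strand is not given in the sources used here, and what the plus strand listed for Il2rg means for its counts was not tested.

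Crlf2 (chr5:109554709-109559128), the chain specific to the TSLP receptor, had FPKM values of 6.03, 6.03, 7.79 and 10.2 in cKO mice and 7.91, 4.63, 8.61 and 8.83 in control mice. The means were 7.52 ± 1.98 and 7.5 ± 1.95 (SD, n = 4 each; exact permutation p = 1), and the log2 fold change was −0.13 (SE 0.205, adjusted p = 0.725 in edgeR). Without control replicate 2, the lowest of the 8 mice, it was −0.21, and the difference of the mean FPKM was −0.935.

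A set of 5 within-mouse ratios of receptor chains was compared, chosen after the values of their genes were seen and therefore described without a test. The FPKM of Il7r over that of Crlf2 was 0.494, 0.597, 0.538 and 0.540 in cKO mice and 0.711, 1.04, 0.729 and 0.758 in control mice. No cKO mouse reached the lowest control mouse, and replicate 4, which was high for each gene, had a ratio like that of replicate 3. The mean ratio was 0.542 ± 0.0422 against 0.810 ± 0.157 (SD, n = 4 each), and control replicate 2 had the highest ratio.

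The remaining 4 ratios overlapped between the groups. Il4ra over Il13ra1, the chains of the type II receptor, was 0.358 ± 0.0568 in cKO mice and 0.263 ± 0.114 in control mice (SD, n = 4 each). Il4ra over Il2rg, the chains of the type I receptor, was 1.41 ± 0.209 against 1.21 ± 0.240. Il13ra1 over Il13ra2 was 3.99 ± 1.44 against 3.58 ± 1.02, and Il13ra1 over Il2rg was 4.00 ± 0.702 against 5.15 ± 1.80. Control replicate 2 had 2.175 for Il13ra1 over Il13ra2 and 7.75 for Il13ra1 over Il2rg. The other control mice lay between 3.664 and 4.605 and between 3.89 and 4.96, so that these control means rest on that mouse. It was also the lowest control mouse for Il4ra over Il13ra1 and over Il2rg, at 0.116 and 0.896.

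**Figure D2:**
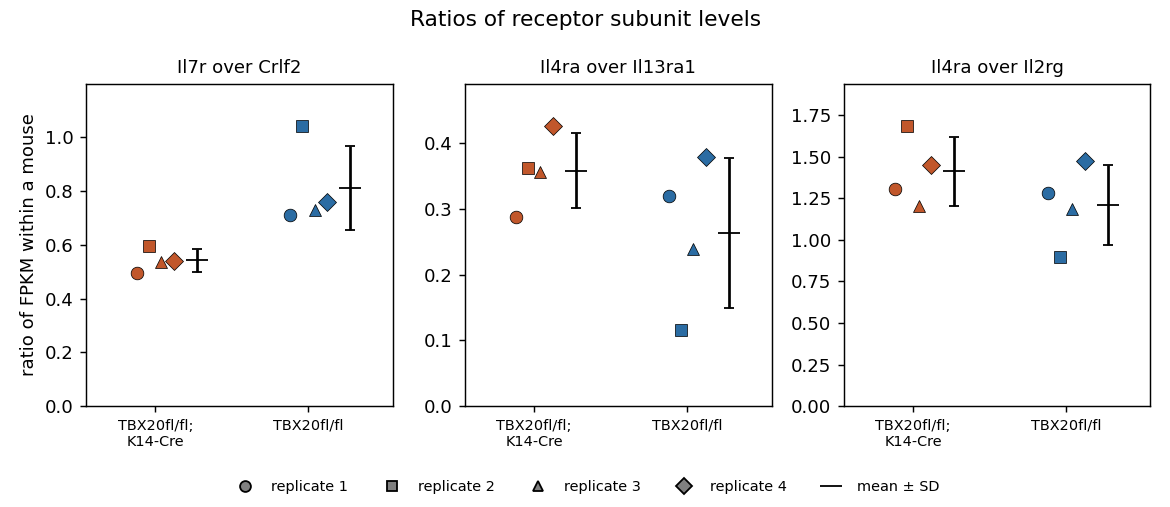
Ratio of FPKM within each mouse (vertical axes, linear from 0) for 3 of the 5 pairs of receptor chains, in cKO (TBX20fl/fl;K14-Cre, orange) and control (TBX20fl/fl, blue) mice, with the mean ± SD at the side. Il7r over Crlf2 lies between 0.494 and 0.597 in the former and between 0.711 and 1.04 in the latter, and the other ratios overlap.

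Il31ra (chr13:112521931-112580732), the itch receptor of IL-31, was the lowest of the receptors. Its FPKM was 1.59, 1.59, 1.49 and 2.27 in cKO mice and 1.79, 0.60, 1.63 and 1.54 in control mice. Apart from the highest and lowest of the 8 mice, all values lay between 1.49 and 1.79. The means were 1.74 ± 0.360 and 1.39 ± 0.537 (SD, n = 4 each; exact permutation p = 0.486), with a log2 fold change of 0.23 (SE 0.267, adjusted p = 0.630 in edgeR) that was 0.044 without control replicate 2. Its ligand Il31 had 0 to 3 counts in each mouse and was below the count minimum, and its partner Osmr had a mean FPKM of 15.4 ± 3.42 against 15.6 ± 6.39 (exact permutation p = 1).

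Stat6 (chr10:127642955-127660987), the transcription factor downstream of both receptors, had FPKM values of 25.8, 26.2, 31.2 and 32.4 in cKO mice and 26.1, 11.2, 25.9 and 31.0 in control mice. All mice but control replicate 2 lay between 25.8 and 32.4. The means were 28.9 ± 3.38 and 23.6 ± 8.55 (SD, n = 4 each; exact permutation p = 0.257). The log2 fold change of 0.18 (SE 0.207, adjusted p = 0.633 in edgeR) was 0.015 without that mouse.

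**Figure D3:**
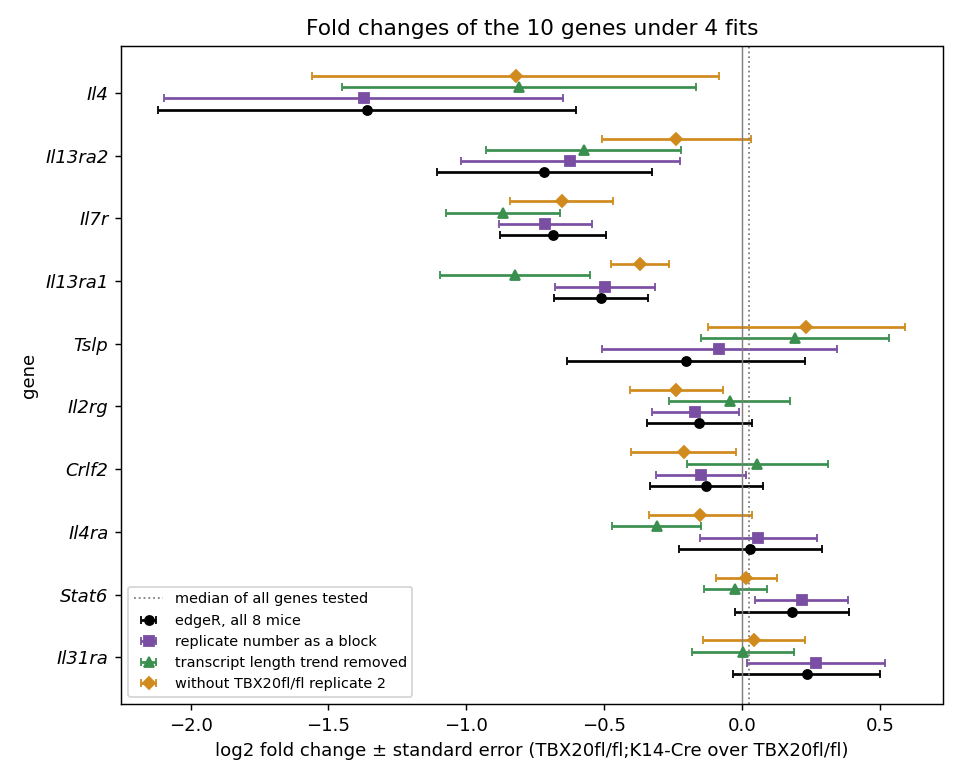
Log2 fold change ± standard error (horizontal axis) of each gene in edgeR with all 8 mice, with the replicate number as a block, with the trend of each library with transcript length removed, and without control (TBX20fl/fl) replicate 2. Il4, Il7r and Il13ra1 stay below 0 by more than 1 standard error in each of the 4 fits, and Tslp, Crlf2, Il4ra and Stat6 lie on different sides of 0 in different fits. The dotted line is the median of all genes, 0.026.

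The deviation of control replicate 2 differed between short and long transcripts of the set. For Il4, with a length of 538 bases derived from counts and FPKM, its FPKM was above the mean of the other 3 control mice by 1.18 on the log2 scale, and for Tslp (1082 bases) by 0.84. Il4ra (5106 bases), Il31ra (4102 bases) and Stat6 (3755 bases) deviated by −1.41, −1.46 and −1.30. Il13ra1 (3668 bases) deviated by 0.015 and Il7r (3159 bases) by −0.36, while Crlf2 (1309 bases) and Il2rg (1607 bases) were low for their length, at −0.87 and −0.85. With the length trend removed, the log2 fold change of Il13ra1 was −0.82, that of Il7r −0.87, that of Il4 −0.81 and that of Il4ra −0.31. With the trend removed and this mouse left out, an alternative chosen after seeing the data, that of Il13ra1 was −0.44 and that of Il7r −0.70. What sets this mouse apart was not tested.

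**Figure D4:**
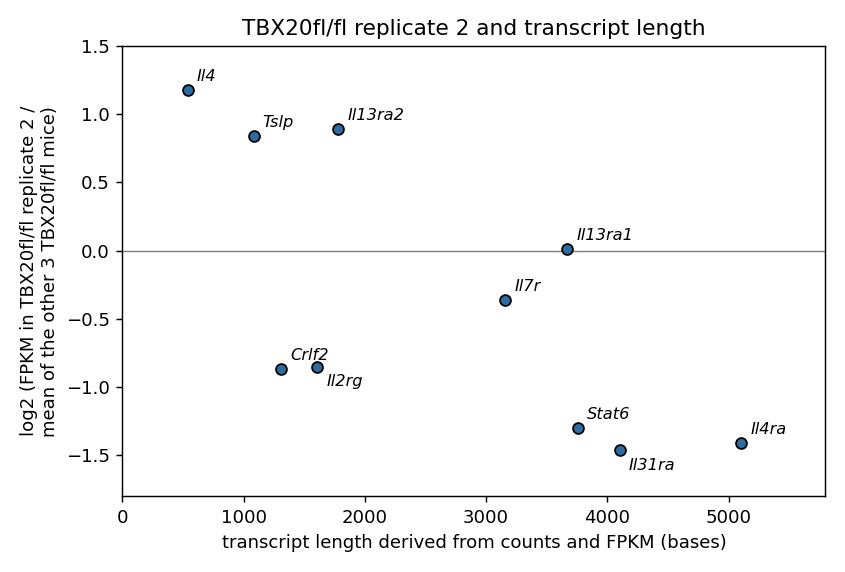
Log2 ratio of FPKM in control (TBX20fl/fl) replicate 2 to the mean of the other 3 control mice (vertical axis) against transcript length in bases (horizontal axis) for the 10 genes. Il4, Tslp and Il13ra2 lie above 0, Il13ra1 lies at 0.015, and the 6 others lie below 0.

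Ordered by FPKM, which is scaled to transcript length, the mean level over the 8 mice was 63.1 for Il13ra1, 26.2 for Stat6, 19.3 for Il4ra, 18.4 for Il13ra2 and 14.5 for Il2rg. Below these lay Crlf2 at 7.51, Il7r at 4.96, Tslp at 2.13, Il31ra at 1.56 and Il4 at 0.580. Il13ra1 was above Stat6 without overlap of their ranges. Every other pair of neighbours had overlapping ranges, although Stat6 was above Il4ra, Il2rg above Crlf2 and Il7r above Tslp in 8 of 8 mice. Il4ra and Il13ra2 could not be ordered, the former being higher in 5 of 8 mice, and the same held for Il13ra2 and Il2rg. These means include control replicate 2, whose FPKM deviated with transcript length, and the order of the 10 means was the same without it.

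Across the 8 mice, the likeness of members was measured by Pearson's r of log2 CPM, as a description over points that include both genotypes and the divergent library. Il2rg and Crlf2 followed each other most closely, with r = 0.933 with all mice and 0.927 without control replicate 2, and Il13ra1 and Il7r had r = 0.819 and 0.870. The values of Il31ra and Stat6, 0.847 with all mice, came to 0.210 without that mouse, and those of Il4ra and Stat6 went from 0.848 to 0.645. Among 13298 genes whose mean count reached 50, those most like Il13ra1 were Xaf1, Nmi and Pmaip1 (r of 0.992, 0.988 and 0.988). Those most like Il7r were F10, Wdr92 and Cyp4f18 (0.976, 0.975 and 0.969), those most like Il2rg were Dnase1l3, Ptpn6 and Tnfrsf1b (0.969, 0.960 and 0.937), and those most like Crlf2 were Csf2ra, Il3ra and Apobr (0.964, 0.961 and 0.961). Il4ra was most like Sec23b (0.984), Il13ra2 most like Nfs1 (0.993), Il31ra most like Elac1 (0.988) and Stat6 most like Elf4 (0.996).

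Of 67 other genes of these pathways, 65 were in the table and 61 were tested. In edgeR, 10 were lower and 2 higher at an unadjusted p under 0.05 (5.91% and 2.45% over all genes tested, also the background of the counts by list), 0 at an adjusted p under 0.05, and the median log2 fold change was −0.13. In FPKM, by contrast, the groups did not overlap for 5 of the 61 with cKO above and 0 with cKO below (5.45% and 1.92% of genes whose mean FPKM reached 0.1). The 5, named after their values were seen, were Irs2, Gata3, Socs2, F2rl1 and Ednra. The split was 7 lower and 3 higher with scaling to library totals, 7 lower and 4 higher with limma on log2(FPKM + 1), 6 lower and 3 higher with the replicate number as a block, and 6 lower and 5 higher without control replicate 2 (4.5% and 3.19% of all genes in that fit). With the length trend removed it was 16 lower and 1 higher, and 14 lower and 2 higher with the block as well. The 12 became 7, 5 and 7 when cKO replicates 1, 2 and 3 were left out in turn. Over all genes, the split of 1012 lower and 419 higher was 562 and 486 with library totals, 541 and 505 with limma, 1120 and 603 with the block, 1210 and 349 with the length trend removed, 1133 and 408 with the block as well, and 767 and 544 without control replicate 2.

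Of 10 further ligands, 7 were tested and 2 were lower at an unadjusted p under 0.05 in edgeR. Il33, an alarmin stored in epithelial nuclei, had a mean FPKM of 39.2 ± 10.4 in cKO mice and 55.0 ± 13.1 in control mice (log2 fold change −0.66, unadjusted p = 0.0188 in edgeR). Il15, which supports memory T cells and natural killer cells, had 16.1 ± 2.89 and 28.3 ± 10.6 (−1.06, unadjusted p = 0.0108 in edgeR). Il13, the other ligand of the type II receptor, had 2 to 8 counts a mouse and a log2 fold change of 0.34 (SE 0.450, unadjusted p = 0.470 in edgeR). Among 13 receptor partners, 1 was lower, Il15ra, the chain that presents IL-15, at 12.96 ± 1.62 against 17.3 ± 2.38 FPKM (−0.50, unadjusted p = 0.0238 in edgeR). Of 10 kinases and transducers, 1 was higher, the T helper 2 and epithelial factor Gata3, at 19.3 ± 0.731 against 13.4 ± 4.46 FPKM (0.41, unadjusted p = 0.0439 in edgeR). Of 6 feedback inhibitors, 1 was lower, Socs3, at 17.8 ± 7.37 against 25.4 ± 6.90 FPKM (−0.67, unadjusted p = 0.0469 in edgeR). Without control replicate 2 the log2 fold change was −0.62 for Il15, −0.32 for Il15ra, −0.58 for Il33, 0.28 for Gata3 and −0.65 for Socs3.

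The list of 13 genes that IL-4 or IL-13 is known to induce had 4 lower and 0 higher at an unadjusted p under 0.05 (5.91% and 2.45% of all genes), with a median log2 fold change of −0.45. Of the 13, 9 had a fold change below 0. Fcer2a, Postn, Mrc1 and Clec10a, named after their values were seen, had log2 fold changes of 0.91, 0.30, 0.23 and 0.022. Ccl8, a chemokine of macrophages, had 239 ± 63.6 against 419 ± 172 FPKM (−1.06, unadjusted p = 0.0233 in edgeR), and Ccl17, which attracts T helper 2 cells, 2.98 ± 0.475 against 7.88 ± 5.65 (−1.63, unadjusted p = 0.0236). Ccl11, an eosinophil chemokine, had 114 ± 23.8 against 184 ± 71.8 (−0.94, unadjusted p = 0.0270 in edgeR). The other, named after its value was seen, was the macrophage product Retnla (−1.06, unadjusted p = 0.0297 in edgeR). In FPKM the groups overlapped for all 4 of these lower genes. The exact permutation p was 0.0571 for Ccl11, 0.0857 for Ccl8, 0.171 for Retnla and 0.229 for Ccl17. Of 12 tested pruritogen receptors and enzymes, 2 were lower. They were the histamine-forming enzyme Hdc (−0.90, unadjusted p = 0.0133 in edgeR) and the mast cell receptor Mrgprb2 (−0.70, unadjusted p = 0.0282 in edgeR). The protease receptor F2rl1 was higher (0.35, unadjusted p = 0.0412 in edgeR), with 8.84 ± 1.24 against 6.29 ± 1.27 FPKM. Without control replicate 2, 6 of the 10 lower genes and 2 of the 2 higher genes of all lists had an unadjusted p under 0.05 in edgeR, and Ccl17, Ccl8, Retnla and Socs3 did not (0.0758, 0.0570, 0.0864 and 0.0663). The log2 fold change without this mouse was −1.09 for Ccl17, −0.59 for Ccl8, −0.45 for Ccl11 and −0.67 for Retnla. It was −0.37 for Mrgprb2, −0.89 for Hdc and 0.32 for F2rl1.

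**Figure D5:**
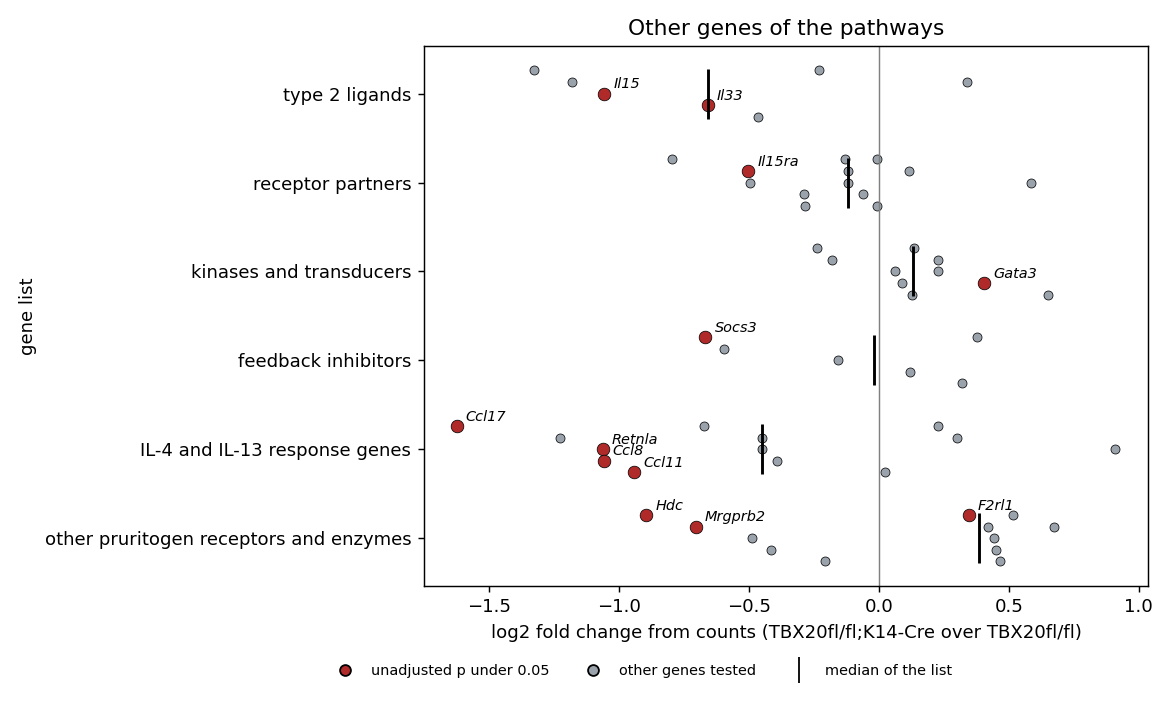
Log2 fold change (horizontal axis) of the 61 tested genes of 6 pathway lists, with genes at an unadjusted edgeR p under 0.05 in red and named, others in grey, and the median of each list as a bar. The 10 red genes below 0 include 4 genes of the IL-4 and IL-13 response list, and the 2 above 0 are Gata3 and F2rl1.

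Markers of the cell types known to carry these genes were compared in the same mice, with 5.91% of all genes lower and 2.45% higher at an unadjusted p under 0.05 in edgeR as the background of each count. Of 6 T cell markers in the table, 5 had a log2 fold change below 0, with a summed FPKM of 22.4 to 29.8 in cKO mice and 20.8 to 48.5 in control mice, the highest being replicate 2. Mast cell markers, 5 of 6 below 0, with 3 of the 6 lower at an unadjusted p under 0.05 (Cpa3, Cma1 and Fcer1a), summed to 480 to 538 against 587 to 880 FPKM and did not overlap, the highest again being control replicate 2. This was 1 of 12 marker lists compared, with an exact permutation p of 0.0286 and an adjusted p of 0.343 over the 12, and the other 11 overlapped. Of 4 basophil markers, 2 were lower at an unadjusted p under 0.05, Mcpt8 and Cd200r3, and Prss34 and Gata2 had log2 fold changes of 0.11 and 0.20. Mcpt8 was near the limit of detection, at 0 to 0.12 against 0.06 to 0.55 FPKM. The summed level of the basophil markers was 7.70 to 10.2 against 7.92 to 10.1. Neutrophil markers were below 0 in 7 of 7, with 4 lower at an unadjusted p under 0.05 (S100a8, S100a9, Cxcr2 and Ly6g) and a median log2 fold change of −0.96, and summed to 110 to 299 against 292 to 974 FPKM. Of these, Ly6g was near the limit of detection, at 0.12 to 0.23 against 0.37 to 0.56 FPKM. In the lists of T cells, of macrophages and dendritic cells and of general leukocytes, 1 marker each was lower at an unadjusted p under 0.05 in edgeR. Macrophage and dendritic cell markers were below 0 in 4 of 7, at 506 to 865 against 635 to 912 FPKM. Fibroblast markers were below 0 in 2 of 5, with 2 higher at an unadjusted p under 0.05 (Col1a1 and Col1a2, with log2 fold changes of 1.10 and 0.75) and a summed FPKM of 3292 to 4134 against 3144 to 5260. Keratinocyte markers were below 0 in 1 of 6. The 3 general leukocyte markers summed to 108 to 178 against 131 to 186. The part of these cells in the values of Il4, Il7r, Il13ra1, Hdc and Mrgprb2 was not tested.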

How the data were processed

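RNA-seq was carried out by the authors on skin of 8 mice (4 TBX20fl/fl;K14-Cre, called cKO, and 4 TBX20fl/fl, called control), with reads filtered by SOAPnuke (settings l of 15, q of 0.2 and n of 0.05) and aligned with HISAT. The authors deposited estimated read counts (expected counts, not normalized, 69% of those above 0 not whole) and FPKM values for 18901 genes, with coordinates on GRCm38. The program that estimated the counts is not given in the sources used here. Another 16 per-sample columns (TPM and counts divided by size factors), 40 group means and 17 comparisons by the authors (fold changes and p-values) were not used.

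Counts were rounded, and genes with a sum of 10 or more counts (17124) were scaled by TMM and compared by edgeR 4.0.16 (quasi-likelihood test, R 4.3.3), without a block, with Benjamini-Hochberg adjustment over all of them. FPKM differences were tested by two-sided exact permutation over all assignments of the mice. DESeq2 1.42.0, limma 3.58.1 on log2(FPKM + 1) for genes whose mean FPKM reached 0.1, other scalings and filters, an offset for the trend with transcript length and leaving out each mouse were alternatives. P-values measure the spread between single mice. The totals of 16056282 to 19880654 counts per mouse limit low genes, and the limit of 3 counts covers counting error only.

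Mice with the same replicate number deviated together from their group means over 13298 genes (correlations of 0.405, 0.319, 0.332 and 0.160), and the numbers come from the deposited labels. The members, the pathway and marker lists and the tests were chosen with earlier results of these data known. Named genes are the members and, from each pathway list, up to 3 genes in each direction with the smallest unadjusted edgeR p under 0.05, with any gene a sentence of background turns on, and for likeness the 3 genes with the highest correlation with a member. The marker gene Trdc was not analysed here. A gene of the pathway lists is not reported here and is left out of their counts. Promoter sequences are from RefSeq. Sequence shared with other genes was measured as 50-base stretches of annotated transcripts. The scripts were tested on simulated counts and used Python 3.11.15 with pandas 2.3.3.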

Additional observations from a re-analysis of the deposited data

Results flagged for a closer look

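The level of each member was examined in each group of 4 mice, 20 groups in all, and 2 held a mouse set apart from the other 3, where chance gives about 1. cKO replicate 4 had an Il13ra1 FPKM of 64.3, while the other 3 mice of its group lay between 52.1 and 54.0. The same mouse had an Il31ra FPKM of 2.27, while the others lay between 1.49 and 1.59. Without it, the log2 fold change of Il13ra1 was −0.58 and that of Il31ra 0.07 in edgeR, with an unadjusted p of 0.0184 and 0.808.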

How the results depend on the processing

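Every member was without an adjusted p under 0.05 in each alternative run that tested it (Il4 was not tested with at least 10 counts in 4 mice), and Il13ra1 and Il7r kept their direction and an unadjusted p under 0.05 in 19 of 19. The number of genes past the adjusted threshold, 0 in edgeR, was 10 in DESeq2. The 12 pathway genes at an unadjusted p under 0.05 ranged from 5 to 15 as single mice were left out. Scaling to library totals moved the median log2 fold change of all genes from 0.026 to 0.17, and Tslp came to 0.026 and Crlf2 to 0.0063. Removing the length trend gave −0.31 for Il4ra, 0.19 for Tslp, 0.054 for Crlf2 and −0.025 for Stat6. With a replicate block added it gave −0.33, 0.19, 0.063 and −0.026, and −0.0029 for Il31ra. Removing it without control replicate 2, an alternative chosen after seeing the data, gave −0.27 for Il4ra, 0.38 for Tslp, −0.043 for Il31ra and −0.053 for Stat6. On FPKM values, limma gave 0.037 for Tslp and 0.0098 for Crlf2 with a pseudocount of 1, filtered or not, and 0.072 and 0.013 with 0.1. The replicate block alone gave −0.50 for Il13ra1 and −0.71 for Il7r, with 0 genes past the adjusted threshold, changed no call of a member, and moved the pathway genes at an unadjusted p under 0.05 from 12 to 9. In the paired FPKM test Il13ra1 had a p of 0.125, the smallest that 4 pairs can give in a permutation test. Leaving out 1 mouse at a time, the log2 fold change ran from −0.15 to 0.19 for Il4ra and from −0.47 to 0.23 for Tslp, and the FPKM difference from −1.51 to 4.26 for Il4ra, −2.04 to 0.781 for Il2rg, −0.343 to 0.381 for Tslp and −0.935 to 0.515 for Crlf2. The cause of these changes was not tested. Depth limits any statement on Il4, Il13, Il31, Mcpt8 and Ly6g.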
